A study of Mus musculus with 8 samples.

Results

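The genes described here encode the core machinery that copies DNA. They are 39 members chosen by name, out of 26180 genes with a curated RefSeq transcription start site (TSS), and they fall into 6 groups by role. A peak was counted for a gene when it overlapped the region from 1 kb upstream to 100 bp downstream of any TSS of that gene by at least 1 bp, and this region is called the promoter below. All 39 members were found in the annotation and all are accounted for. The name under which they were grouped refers to cycling basal cells, the dividing cells of the innermost epidermal layer. The libraries were made from total epidermis, so no peak can be placed in basal or cycling cells from these lists.

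Chromosome duplication begins at origins. The origin recognition complex, with Cdc6 and Cdt1, loads the Mcm2-7 ring onto DNA in G1 (licensing), and Cdc45 and the GINS complex then join the ring to form the active helicase. Primase and DNA polymerases synthesize the new strands, the clamp Pcna is loaded by replication factor C and tethers the polymerases, RPA coats single-stranded DNA, and Fen1 and Lig1 finish the Okazaki fragments of the lagging strand. Genes of this kind are commonly transcribed at the G1/S transition under E2F transcription factors. In newborn skin, division takes place mainly in the basal layer and in hair follicles.

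All libraries came from whole epidermis of newborn mice (postnatal day 0.5) of wild-type genotype, and the samples used here hold no other genotype or treatment. MOF, an acetyltransferase of histone H4 lysine 16, was mapped by ChIPseq on fixed, sonicated epidermal cells. Rfx2, a factor known for ciliary genes that binds a motif called the X-box, and the histone marks H3K4me3 (active promoters) and H3K27ac (active promoters and enhancers) were mapped by Cut&Run, where nuclease tethered to the antibody releases the bound DNA from cells made permeable with digitonin. Of 8 samples covering 6 antibodies, the lists of 4 libraries were used, 1 per antibody, so there is no replicate error and no test across replicates. The lists hold no read totals. The study states one for each library, with the fewest reads for Rfx2 among the antibodies used here. The labels tie the H3K4me3 list to a repeat library, but its name lacks the mark of a repeat, so its library, and with it the depth behind it, is uncertain. Intervals below are exact (Clopper-Pearson) 95% confidence intervals that cover counting error over genes only. A peak in such bulk material does not tell in what share of the cells the protein or the mark was present.

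Markers of the tissue were examined first. H3K4me3 was found at the promoters of 7 of 8 basal keratinocyte markers, among them Krt5 and Krt14, and of 6 of 6 proliferation markers. It was found at 3 of 7 annotated suprabasal markers, and the defining genes Krt1, Krt10, Ivl and Lor had none. Of the markers of other cells, 0 of 6 immune, 3 of 6 melanocyte, 3 of 6 fibroblast, 1 of 4 endothelial and 1 of 4 Merkel markers carried it. The part of other cell types in the peaks at replication genes was not tested.

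H3K4me3 was present at all 39 replication gene promoters (100%, 91.0 to 100%), against 54.0% of all genes. H3K27ac was present at 35 of 39 (89.7%, 75.8 to 97.1%), against 44.1% of all genes and 79.8% of genes with H3K4me3. MOF was present at 23 of 39 (59.0%, 42.1 to 74.4%), against 23.7% of all genes and 42.0% of genes with H3K4me3. By this overlap rule, replication gene promoters thus carried the promoter mark without exception, the acetyl mark with 4 exceptions, and MOF in a divided manner. With the centre of the peak required to lie in the promoter, H3K4me3 was at 41% of members, against 25.5% of all genes. Rfx2 was present at 1 of 39, Rfc5 (2.56%, 0.0649 to 13.5%), against 1.21% of all genes and 2.24% of genes with H3K4me3.

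The 3 lists together sorted the members into 4 states. MOF and both marks were found at 20 promoters (51.3%, 34.8 to 67.6%), against 21.0% of all genes and 39% of genes with H3K4me3, which all members carry. Both marks without MOF were found at 15 (38.5%), against 22.0% of all genes and 40.8% of genes with H3K4me3. MOF and H3K4me3 without H3K27ac were found at 3 (Mcm3, Gins3 and Rfc2), against 1.62% and 3.0% of the same sets, and H3K4me3 alone at 1 (Mcm2), against 9.27% and 17.2%. Among the 35 members with both marks, 20 had MOF (57.1%, 39.4 to 73.7%), and the 48.8% seen over all genes with both marks lies inside this interval. With this number of genes, the MOF share of the replication genes could not be separated from that of promoters with both marks in general. For all 39 members the lower bound (42.1%) came close to the 42.0% of genes with H3K4me3.

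**Figure D1:**
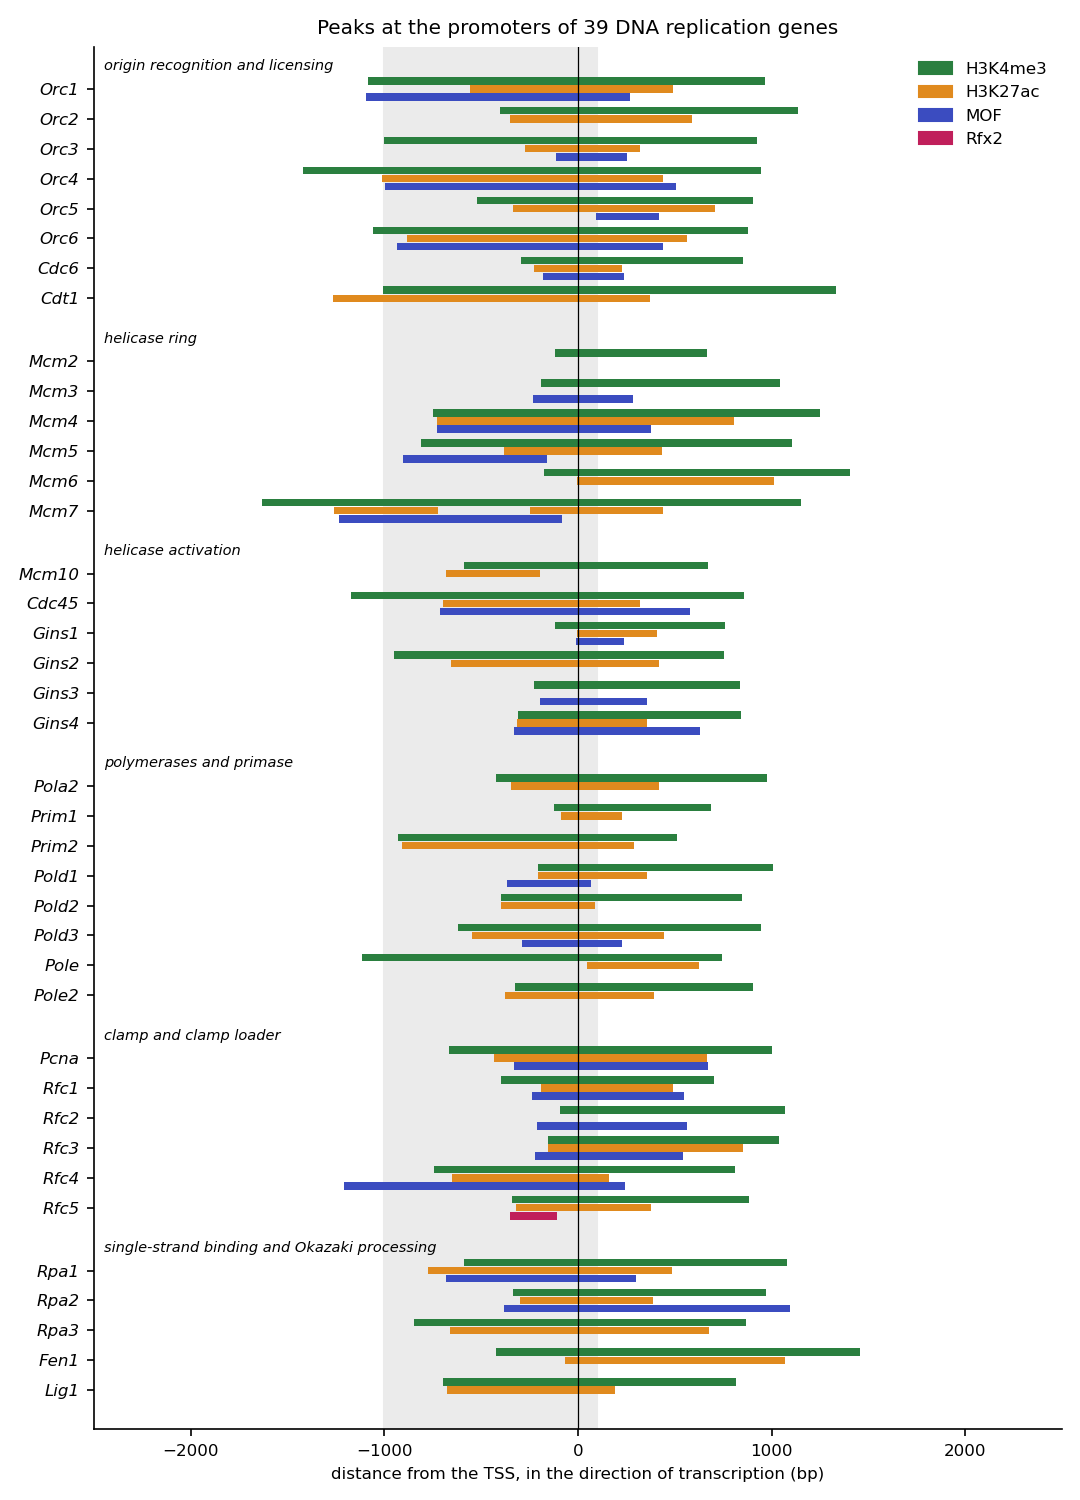
Peaks at the promoters of the 39 replication genes, by role. The x axis is the distance from the TSS in bp, with transcription to the right, the bars span the peaks of H3K4me3, H3K27ac, MOF and Rfx2 that meet the promoter (others are not drawn), and the shaded region is the promoter. H3K4me3 covers the TSS in every row, the MOF bars are missing in 16 rows, and the only Rfx2 bar is at Rfc5.

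The map of peaks around the TSS shows how the lists lay on each other. The H3K4me3 peak covered the TSS at 39 of 39 members, against 88.7% of all genes with H3K4me3, and the H3K27ac peak at 33 of 35, against 83.7% of those with H3K27ac. The MOF peak did so at 20 of 23 (87.0%, 66.4 to 97.2%), close to the 82.5% of all genes with MOF. Orc5, Mcm5 and Mcm7 were the members whose MOF peak did not reach the TSS used here. Where a gene had several TSSs, the one nearest to the H3K4me3 summit was used, for members and all genes alike. This choice favours cover of the TSS by H3K4me3. Of the 23 MOF peaks, 13 lay wholly inside an H3K4me3 peak and 18 with at least 90% of their length. The MOF peak overlapped an H3K27ac peak at each of the 20 promoters that held all 3, with a median of 93.3% of its length. Mcm5 had the lowest value of these, 30.3%, since its MOF peak lay mostly upstream of the H3K27ac peak. These overlaps were not set beside those of all genes with MOF, so they describe the members only.

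Origin recognition and licensing genes carried both marks at all 8 promoters and MOF at 6. The MOF score, which ranks peaks within the MOF list and whose scale is not stated, was 1032 at Orc6, 940 at Orc4 and 919 at Orc5, subunits of the origin recognition complex. These 3 lay at the 84.6th, 78.9th and 76.9th percentile of all genes with MOF at the promoter. Their MOF peaks, and those of Orc1 and Orc3, also lay at the promoter of a neighbouring gene on the opposite strand, so the scores cannot be assigned to the licensing genes alone. Orc1, the subunit that turns over with the cell cycle, had a MOF score of 582 over 1363 bp. At Cdc6, the ATPase that joins the complex in licensing, the score was 620 over 420 bp. Orc3 had a score of 494 over 367 bp, near the low end of the members. Orc2 and Cdt1 had no MOF peak at the promoter, and the nearest ones lay 80843 bp and 30644 bp away, both upstream. Cdt1, the licensing factor that geminin inhibits, had the widest H3K27ac peak of all members (1637 bp) and a 2338 bp H3K4me3 peak, so a wide pair of marks occurred here without MOF. By H3K4me3 fold enrichment the group ran from Orc4 (5.66), Cdt1 (6.07), Orc6 (6.45), Orc1 (7.01) and Orc3 (7.48) to Cdc6 (8.66), Orc2 (8.92) and Orc5 (10.2). H3K27ac fold enrichment was lowest at Cdc6 (5.71) and highest at Orc5 (11.1), so Orc5 led the group in both marks with a MOF peak of 328 bp.

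By the promoter rule used here, the genes of the Mcm2-7 ring, the core of the replicative helicase, held all 4 states, which no other role did. Mcm5, Mcm7 and Mcm4 had MOF (scores 703, 650 and 648) and both marks, with H3K27ac fold enrichments of 7.40, 7.50 and 6.58. Mcm3 had MOF (score 494, 514 bp) and H3K4me3 (fold enrichment 9.48) without H3K27ac. Mcm6 had both marks without MOF (fold enrichment of H3K4me3 8.13 and of H3K27ac 6.32), and Mcm2 had only H3K4me3. At Mcm2 this peak (chr6:88898114-88898898) was the lowest of the members, with a fold enrichment of 3.77 over 785 bp, at the 3.77th percentile of all genes with H3K4me3 by height. Its nearest MOF and H3K27ac peaks lay 2728 bp and 2756 bp upstream. They overlapped each other at the TSS of the neighbouring gene Tpra1, which is transcribed away from Mcm2 and lies 3471 bp from the Mcm2 TSS. Mcm7 was at the other end, with the widest H3K4me3 peak of the members (2785 bp, fold enrichment 4.98) and a second H3K27ac peak of 534 bp at its promoter (fold enrichment 3.09). Both of these peaks also cover the TSS of Ap4m1, a neighbouring gene on the opposite strand, so they cannot be assigned to Mcm7 alone. The MOF peaks of Mcm7 and Mcm4 are likewise shared with a neighbouring gene. Subunits of a ring that is built from 1 copy of each thus had unlike peaks at their promoters, some of them shared with a neighbour.

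Mcm6 was close to the boundary of the rule. A MOF peak of 462 bp (score 469) began 195 bp downstream of its TSS and lay inside the H3K4me3 peak. The H3K27ac peak of Mcm6 also ran downstream, reaching 1011 bp into the gene and 6 bp upstream. With windows of 500 bp, 1 kb or 2.5 kb on either side of the TSS, Mcm6 counted as a MOF gene in each case. The ring then had no gene with both marks and without MOF, so it no longer held every state.

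Genes of helicase activation had MOF at 4 of 6 promoters. Gins4, a subunit of the GINS complex, had the highest MOF score of the 39 (1293 at chr8:23237040-23237996, at the 93.3rd percentile of all MOF promoters). Cdc45, the partner of GINS in the active helicase, had a score of 717 over 1288 bp. Gins3 had 571 without H3K27ac, and its nearest H3K27ac peak lay 69144 bp downstream. Gins1 had the narrowest MOF peak of the members, 247 bp with a score of 494. The GINS subunits, which act as 1 complex, thus covered almost the full range of MOF scores, and Gins2 had no MOF peak within 18931 bp. Mcm10, which acts when the helicase is switched on, had the highest H3K4me3 fold enrichment of the members (13.1) together with the lowest H3K27ac fold enrichment (4.17), and no MOF within 68062 bp. The other H3K4me3 fold enrichments were 12.6 at Gins4, 11.5 at Gins3, 9.38 at Gins1, 7.52 at Gins2 and 7.17 at Cdc45. Those of H3K27ac were 8.96 at Gins4, 8.02 at Gins1, 5.93 at Cdc45 and 5.25 at Gins2, so Gins4 was high in all 3 lists.

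Polymerase and primase genes carried MOF at 2 of 8 promoters (25%, 3.19 to 65.1%), the lowest share of any role, although all 8 had both marks. The 2 were Pold1 and Pold3, the catalytic and an accessory subunit of polymerase delta, each with a score of 494. The catalytic subunit of polymerase epsilon, Pole, its partner Pole2, the primase subunits Prim1 and Prim2, Pola2 of polymerase alpha and Pold2 had no MOF peak at the promoter. Their nearest MOF peaks lay between 5352 bp (Pold2) and 50287 bp (Pola2) from the TSS, so none was close to the boundary of the rule. Members of the other roles had MOF at 21 of 31 (67.7%, 48.6 to 83.3%). The interval of the polymerase and primase genes also held the 23.7% of all genes, the 42.0% of genes with H3K4me3 and the 48.8% of genes with both marks. The intervals of the roles overlapped, and the groups were formed by role with the data known, so the difference is given as a description. H3K4me3 at the polymerase and primase genes was not low, with a median fold enrichment of 8.93 against 8.66 over all members and a median width of 1321 bp against 1510 bp. It was highest at Prim1 (13.0), followed by Pole2 (10.6), Pold3 (9.38), Pold2 (9.03), Pola2 (8.83), Prim2 (8.41), Pold1 (7.87) and Pole (7.13). H3K27ac fold enrichment lay between 5.33 at Pola2 and 9.09 at Pold2, and Prim1 had the narrowest H3K27ac peak of the members (312 bp). The 2 genes with MOF, Pold1 (5.57) and Pold3 (6.92), did not stand out in H3K27ac.

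Clamp and clamp loader genes had MOF at 5 of 6 promoters. Pcna, the sliding clamp, had a score of 896 over 1001 bp. The loader subunits Rfc2, Rfc1, Rfc3 and Rfc4 had scores of 789, 635, 610 and 473. Rfc2 lacked H3K27ac at the promoter, with the nearest peak 1349 bp upstream, and had an H3K4me3 fold enrichment of 13.0, above Rfc1 (11.9) and the other loader genes. Rfc3 had the highest H3K27ac fold enrichment of this group (11.6), and Rfc4 had the lowest MOF score of all members together with 1 of the widest MOF peaks (1451 bp). By H3K4me3 fold enrichment, Rfc3 (10.9), Rfc5 (9.85), Rfc4 (8.82) and Pcna (5.81) came after Rfc1, so the gene of the clamp was below all those of its loader. Of the genes of this group with H3K27ac, Pcna also had the lowest fold enrichment (7.17), against 8.62 at Rfc5, 9.03 at Rfc1 and 10.5 at Rfc4. Rfc5 was the exception for MOF. A MOF peak of 257 bp (score 707) began 252 bp downstream of its TSS, and it was counted with each of the same 3 windows.

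Of the genes for RPA and Okazaki fragment processing, Rpa1 (score 546, 983 bp) and Rpa2 (score 613, 1474 bp) had MOF. Rpa3, the smallest RPA subunit, Fen1, the flap nuclease, and Lig1, the ligase that seals the fragments, had none. Lig1 had the highest H3K27ac fold enrichment of the members (17.6), above 99.9% of all genes with H3K27ac at the promoter, while its nearest MOF peak was 240157 bp away, the longest such distance. Both marks of Lig1 rest on the choice of TSS, since with only the TSS of its transcript with the longest coding sequence neither was counted. High H3K27ac and MOF were thus found apart at this gene. All 5 genes had both marks. H3K27ac at Lig1 lay at chr7:13278151-13279016, and at the other 4 its fold enrichment was 9.29 (Rpa3), 8.97 (Rpa2), 7.86 (Fen1) and 7.43 (Rpa1). H3K4me3 fold enrichment was 10.9 at Lig1, 9.20 at Rpa2, 8.20 at Rpa1, 7.73 at Fen1 and 7.68 at Rpa3.

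**Figure D2:**
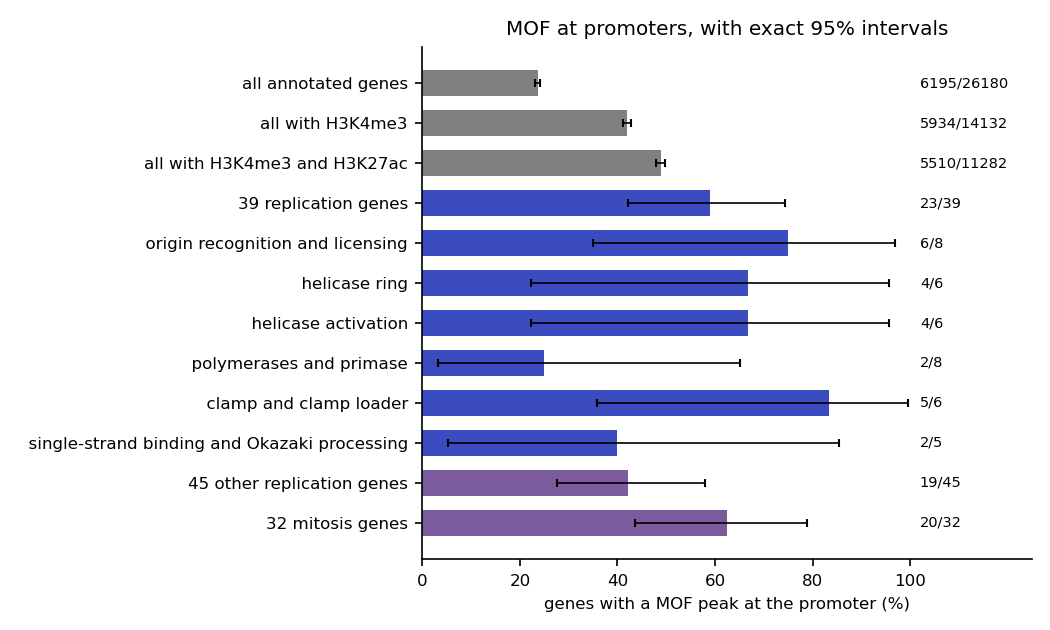
Share of genes with a MOF peak at the promoter, in percent, with exact 95% intervals and counts at the right. Grey bars are background sets of all genes, blue bars the 39 replication genes and their roles, and purple bars 2 further gene lists. The intervals of the roles are wide and overlap.

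The MOF peaks of the members were not separated in score or width from those of other genes. Their median score was 620 (95% interval of the median 546 to 717, range 473 to 1293, n = 23), against 656 over all genes with MOF at the promoter, and 8 of the 23 lay above that median. The median width was 786 bp (517 to 1148 bp) against 1008 bp, and 15 of 23 were narrower than that median. A score of 494 was shared by 5 members, Orc3, Mcm3, Gins1, Pold1 and Pold3. These 5 were among the 8 that dropped out when the MOF list was limited to its upper 50% by score, which left 15 members with MOF (38.5%), against 26.1% of genes with H3K4me3 under the same limit.

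**Figure D3:**
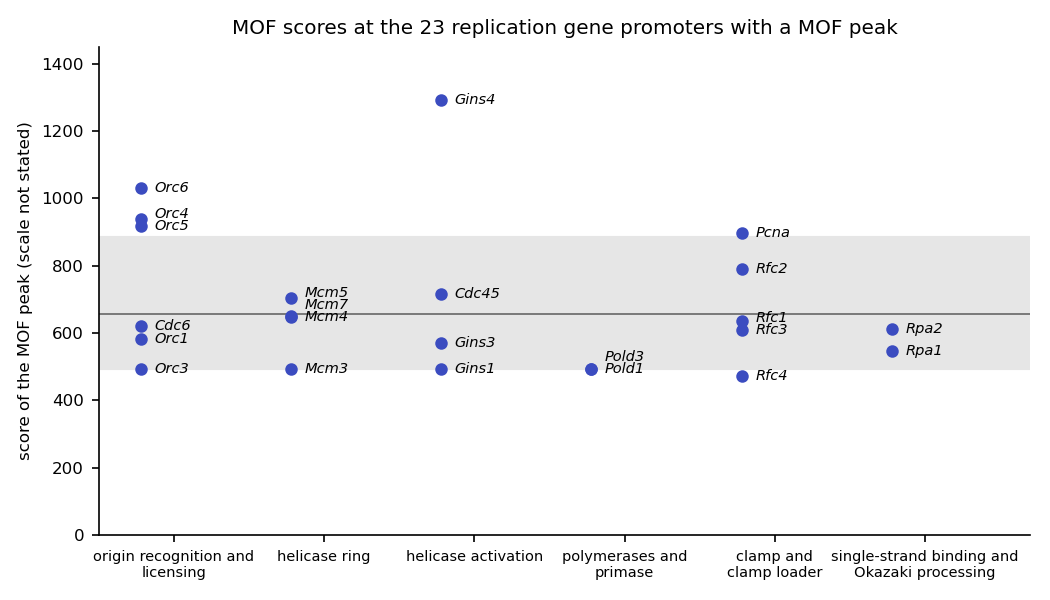
Score of the MOF peak at the 23 replication gene promoters that have one, by role. Each point is 1 gene, the line is the median over all genes with MOF at the promoter (656) and the band spans their middle 50%. Orc4, Orc5, Orc6, Gins4 and Pcna lie above the band, and points of equal score overlap (Pold1 and Pold3).

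H3K4me3 peaks of the members had a median fold enrichment of 8.66 (95% interval of the median 7.52 to 9.38, range 3.77 to 13.1, n = 39), against 8.04 over all genes with H3K4me3. Their median width was 1510 bp (1235 to 1702 bp, range 785 to 2785 bp), against 1306 bp, and 23 of 39 were wider than that. For H3K27ac the median fold enrichment was 7.71 (6.92 to 8.33, range 4.17 to 17.6, n = 35), against 6.72, and the median width 866 bp, against 898 bp. Of the 35 members with H3K27ac, 24 lay above the median fold enrichment of all genes with it, and of the 39 with H3K4me3, 23 did. Heights are not compared between lists.

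Within the members, wide H3K4me3 peaks were low and narrow ones high. Over the 39 promoters, width and fold enrichment had a Pearson's r of -0.64 and a Spearman's rho of -0.72, against -0.22 and -0.21 over all 14132 genes with H3K4me3. The points share 1 library, and genes are not independent replicates. Mcm2 departed from this relation, being both narrow and low. H3K4me3 width also went with H3K27ac width (r = 0.60, rho = 0.65, n = 35) and with MOF width (r = 0.56, rho = 0.57, n = 23).

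**Figure D4:**
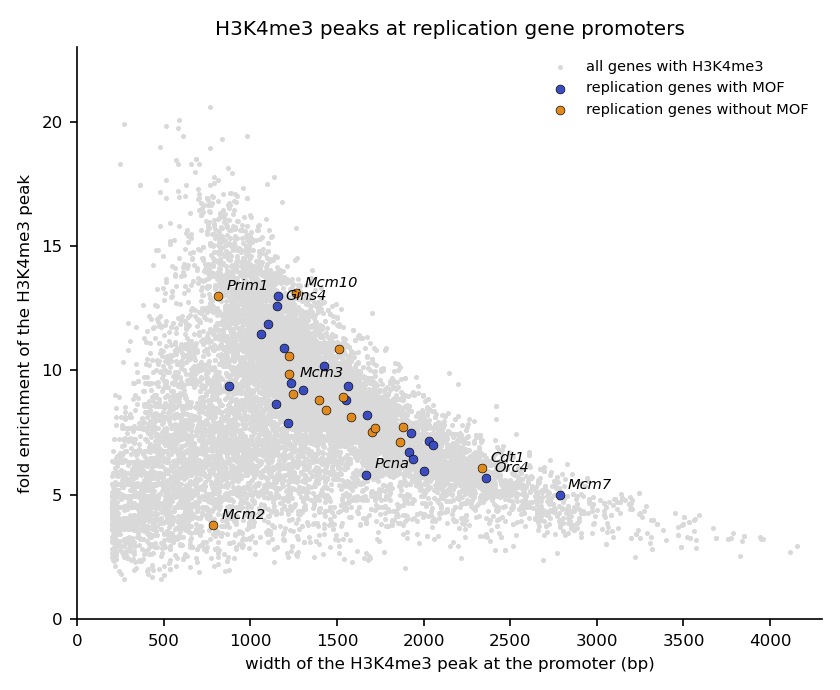
Width in bp against fold enrichment of the H3K4me3 peak at each promoter. Grey points are all genes with H3K4me3, blue points replication genes with MOF and orange points those without. Blue and orange points are mixed along a band from narrow and high (Prim1, Mcm10) to wide and low (Orc4, Mcm7), and Mcm2 lies below the band.

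Members with and without MOF had H3K4me3 peaks of overlapping size. The median width was 1554 bp (range 876 to 2785 bp, n = 23) with MOF and 1473 bp (785 to 2338 bp, n = 16) without it, and the median fold enrichment was 8.66 and 8.62. H3K27ac had a median fold enrichment of 7.72 (5.57 to 11.6, n = 20) with MOF and 6.96 (4.17 to 17.6, n = 15) without. These ranges overlapped. Over all genes with H3K4me3, the median width was 1457 bp with MOF and 1184.5 bp without, the same direction as in the members.

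The share with MOF was also set beside that of all genes in 4 classes of H3K4me3 width. Among members with H3K4me3 peaks under 1000 bp, 1 of 3 had MOF, against 24.0% of all such genes. From 1000 to under 1500 bp it was 10 of 16, against 43.6%. From 1500 to under 2000 bp it was 7 of 14, against 53.8%, and for 2000 bp or more it was 5 of 6, against 55.7%. Each member share had an interval that held the value over all genes, from 0.840 to 90.6% in the narrowest class to 35.9 to 99.6% in the widest.

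A TSS of another gene on the opposite strand lay within 1 kb upstream (head to head) of 15 of the 39 members (38.5%, 23.4 to 55.4%), against 20.0% of genes with H3K4me3. Licensing genes made up 5 of the 15, Orc1 with Prpf38a (118 bp between TSSs), Orc3 with Rars2 (15 bp), Orc4 with Mbd5 (241 bp), Orc5 with 6030443J06Rik (75 bp) and Orc6 with Vps35 (115 bp). The others were Mcm4 with Prkdc (466 bp), Mcm7 with Ap4m1 (138 bp), Cdc45 with Ufd1 (322 bp), Prim2 with 1700001G17Rik (30 bp), Pole with Pxmp2 (151 bp), Rfc5 with Gm15728 (99 bp), Rpa1 with Smyd4 (50 bp), Rpa3 with Umad1 (147 bp), Fen1 with Tmem258 (281 bp) and Lig1 with Zswim9 (105 bp). Distances are the shortest between head-to-head TSSs of each pair. For Mcm7 and Fen1 they are from another TSS than the one used elsewhere here, and at the latter Fen1 and Tmem258 are not head to head. All origin recognition complex genes but Orc2 thus share their promoter region with a neighbour.

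At such promoters a peak cannot be assigned to either gene. All 9 paired members with MOF shared their MOF peak with the partner, namely the 5 licensing genes and Mcm4, Mcm7, Cdc45 and Rpa1. Of the other 6 pairs, 5 had no MOF on either gene. The sixth was Rfc5, whose downstream MOF peak lay in the promoter of Gm15728. MOF was found at 9 of 15 paired members (60.0%, 32.3 to 83.7%), against 59.6% of all paired genes with H3K4me3, and at 14 of 24 unpaired members (58.3%, 36.6 to 77.9%), against 37.6%. The paired members matched their background closely, and the interval of the unpaired ones held the background near its lower end.

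Pairing also went with the shape of the marks. H3K4me3 reached further downstream than upstream of the TSS at 30 of 39 members, against 67.1% of genes with H3K4me3. Among unpaired members it did so at 23 of 24, against 74.3%, with Gins2 as the exception, and among paired members at 7 of 15, against 38.0%. The median width of H3K4me3 was 1880 bp at paired and 1240 bp at unpaired members, and the median fold enrichment was 7.48 and 9.12. All genes with H3K4me3 showed the same directions, with 1605 bp and 1234 bp and with 7.52 and 8.21. Of the 6 members with H3K4me3 peaks of 2000 bp or more, all but Cdt1 were paired. MOF peaks were wider at paired members too, with a median of 1148 bp (n = 9) against 754.5 bp (n = 14), as over all genes with MOF (1102 bp against 972 bp).

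The DNA at these promoters was searched for motifs of cell cycle transcription, from 250 bp upstream to 50 bp downstream of the TSS nearest to the H3K4me3 summit, on both strands. The search used RefSeq sequence of GRCm38.p6, of which mm10 is the browser name, and 30 of the 39 stretches were also in the RefSeq promoter table used here. The E2F motif was taken as TTTCCCGC, TTTCGCGC, TTTGCCGC or TTTGGCGC. It was found at 17 of 39 members (43.6%, 27.8 to 60.4%), against 4.37% of genes with H3K4me3. By role it was found at 4 of 8 licensing genes, 4 of 6 genes of the ring, 3 of 6 of helicase activation, 4 of 8 of polymerases and primase, 1 of 6 of clamp and loader (Rfc3) and 1 of 5 of RPA and Okazaki processing (Lig1). Of the shares compared here, this one differed most, as a ratio, from that of genes with H3K4me3. The ratio depended on the window and the spelling. With 500 bp on either side of the TSS, a match was found at 51.3% of members and at 11.1% of genes with H3K4me3. With the shorter core GGCGGG or GGCGCG, a match was found at 82.1% of members and at 75.8% of genes with H3K4me3.

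Overlapping matches were merged into 21 sites. Of these, 17 lay with every base within 50 bp of the TSS, and the most distant began 224 bp upstream, at Mcm4. All 21 lay inside an H3K4me3 peak, and 14 inside an H3K27ac peak. The sites of 8 genes are shown with 9 bases on either side, to let the variants be compared, on the strand of the gene from 5′ to 3′, with the motif in capitals.
Orc1, chr4:108579418-108579443, + strand: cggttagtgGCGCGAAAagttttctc
Cdt1, chr8:122568038-122568063, + strand: aactaccttTTTGGCGCcatggcgca
Mcm5, chr8:75109347-75109376, + strand: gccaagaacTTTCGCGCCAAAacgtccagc
Mcm6, chr1:128359795-128359824, - strand: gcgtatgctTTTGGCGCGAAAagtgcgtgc
Gins1, chr2:150909576-150909605, + strand: ttgagcctaTTTGGCGCCAAAgcgaggagc
Gins3, chr8:95633509-95633534, + strand: gagtgcggcGCGGGAAAgcgagtttg
Pole2, chr12:69228164-69228189, - strand: tcggcggtgGCGCCAAAtcgcgaaca
Lig1, chr7:13278843-13278868, + strand: ccaaagtgcGCGCGAAAtctgtgtgg

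In Mcm5, Mcm6 and Gins1 a match on each strand overlapped the other, so that the capitals read as a 12-base run. The site of Gins1 spanned the TSS, with its first base 9 bp upstream and its last 2 bp downstream. Those of Orc1 and Gins3 began 27 bp and 41 bp upstream, and those of Pole2, Lig1 and Cdt1 began 10 bp, 26 bp and 32 bp downstream. The site of Mcm5 and the one shown of Mcm6 lay further out, beginning 153 bp and 110 bp upstream. Mcm6 and Cdt1, which have E2F sites, lack MOF by the rule used here, and Orc4 and Gins4, which have high MOF scores, have no E2F match in this window.

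For the E2F motif the intervals of members with and without MOF overlapped. Members with MOF had it in 11 of 23 cases (47.8%, 26.8 to 69.4%). Members lacking MOF had it in 6 of 16 (37.5%, 15.2 to 64.6%). Of the 14 sites in members with MOF, 13 lay inside a MOF peak, the exception being that of Mcm5, where the MOF peak lay upstream. A match is a description of the sequence and not of a bound factor.

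The CCAAT box (CCAAT), which NF-Y recognizes, was found at 26 of 39 members (66.7%, 49.8 to 80.9%), against 38.0% of genes with H3K4me3. It was found at 6 of 6 genes of the ring and at 6 of 6 of helicase activation, and at 14 of the other 27. The CHR element (TTTGAA), found in genes transcribed in G2 and mitosis, was found at 4 of 39 (10.3%, 2.87 to 24.2%), against 10.8%, namely at Mcm2, Cdc45, Gins3 and Fen1. In a list of 32 mitosis genes these 2 motifs were reversed in frequency, with the E2F motif at 2 of 32 (6.25%, 0.766 to 20.8%) and the CHR element at 22 of 32 (68.8%, 50 to 83.9%). The intervals of the 2 lists did not overlap for either motif. For the CCAAT box they did, with a match at 27 of 32 mitosis genes (84.4%, 67.2 to 94.7%). Members had a median GC content of 61.3% in this window, against 62.0% of genes with H3K4me3, and a ratio of observed to expected CpG of 0.877, against 0.779.

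**Figure D5:**
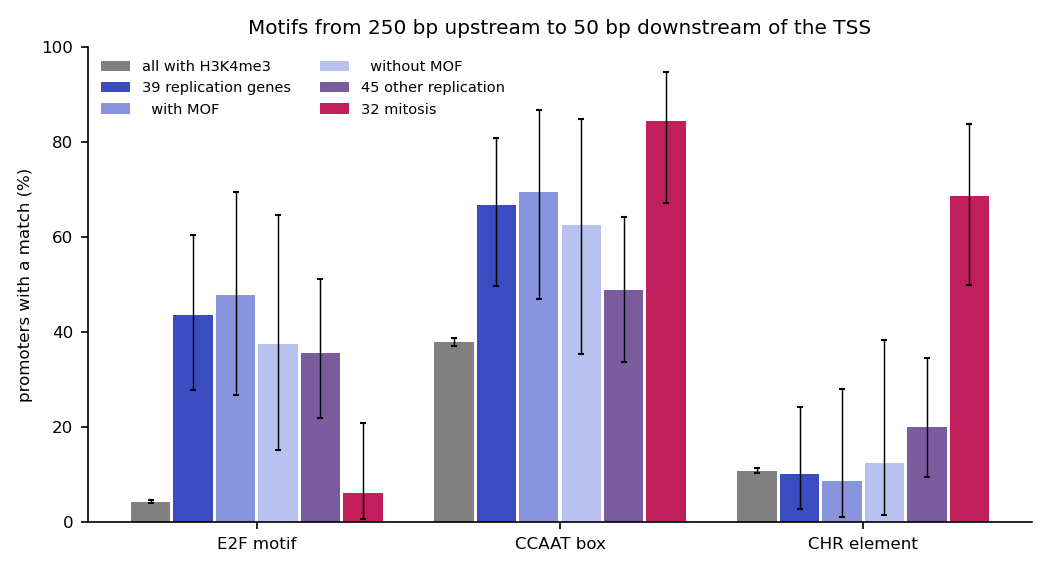
Share of promoters with a match to 3 motifs, in percent, with exact 95% intervals. Bars show all genes with H3K4me3, the 39 replication genes, those with and without MOF, 45 other replication genes and 32 mitosis genes. The E2F motif is frequent in both replication lists and the CHR element in the mitosis list.

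Rfc5, a small subunit of the clamp loader, was the only member with Rfx2. The peak lay upstream of the TSS at chr5:117389131-117389374, was 244 bp wide and had a fold enrichment of 13.4, rank 29 of the 337 Rfx2 peaks. Its summit was at 117389193. Rfc5 was also the only member with an X-box, the motif of Rfx factors, in the window from 250 bp upstream to 50 bp downstream (both strands searched), and a match was found there at 1.68% of genes with H3K4me3. It is shown with 8 bases on either side on the strand of the gene, with the X-box in capitals.
Rfc5, chr5:117389108-117389136, - strand: cgcctaggGTTACCTAGCAACcagcacct

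The X-box began 105 bp upstream of the Rfc5 TSS, and its centre lay 71 bp from the Rfx2 summit. It was just outside the called peak, ending 3 bp from the first base of the peak. The same stretch lies at the TSS of Gm15728, annotated as a long non-coding RNA gene on the other strand, so the Rfx2 peak belongs to both promoters. Among the other replication genes listed below, Rfx2 was found at Pole3 (fold enrichment 11.4), an accessory subunit of polymerase epsilon that had MOF as well, and at Uhrf1 (5.63), a reader of hemimethylated DNA that had none.

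Peaks inside the gene that did not meet the promoter were counted as well. MOF had such peaks in 6 of 39 members (15.4%, 5.86 to 30.5%), against 23.3% of genes with H3K4me3. There were 2 in Mcm6 and 1 each in Orc1, Prim1, Prim2, Pole2 and Rfc5, and those closest to the TSS in Mcm6 and Rfc5 are the ones described above. H3K27ac had 1 each in Pola2, Prim1 and Pold1 (7.69%, 1.62 to 20.9%), against 30.3%, and H3K4me3 had 2 in Pola2 and 1 in Lig1 (5.13%, 0.627 to 17.3%), against 27.3%. The members were shorter, with a median gene length of 16142 bp against 20907 bp, and the part of length in these shares was not tested. The gene Prim2 is the longest of the members (215987 bp) and had a single MOF peak in its body. Of the 9 members with more than 1 curated TSS, Orc2 and Lig1 each had a TSS without a peak of any list, and the peaks were at their other start sites.

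A further 45 genes of DNA replication, such as accessory subunits, S-phase kinases, fork protection factors and enzymes of nucleotide synthesis, were counted in the same way. MOF was found at 19 of 45 (42.2%, 27.7 to 57.8%), H3K4me3 at 44 and H3K27ac at 43. The gene without H3K4me3 was Ccna2, cyclin A2, whose nearest peak was 510 bp from the TSS, and it and Rnaseh2a, a subunit of ribonuclease H2, lacked H3K27ac. MOF was found at 20 of 32 mitosis genes (62.5%, 43.7 to 78.9%), with H3K4me3 and H3K27ac at all 32. The interval of the 39 members overlapped those of both lists. The E2F motif was found at 16 of 45 other replication genes (35.6%, 21.9 to 51.2%), close to the share in the members.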

How the data were processed

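Peak lists of 4 libraries of newborn mouse epidermis were used. The authors aligned reads to mm10 with Bowtie2 (very sensitive, local) and called peaks library by library with MACS2, keeping duplicates by its automatic rule and without a fragment model for MOF and in paired-end mode for the other lists, with no control stated. The study states the versions of both tools, which are not repeated here. In the deposited Rfx2, H3K4me3 and H3K27ac lists each peak has a score, a fold enrichment, and a −log10 p-value and −log10 q-value. The deposited MOF list holds a score of unstated scale only. It has 17546 peaks. This is more than the study states to have called, so MOF shares may be higher here than with the authors' final call, and shares for its upper 50% by score are given as well. H4K16Ac and H3K4me1 libraries were not used here.

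TSSs came from curated RefSeq transcripts of GRCm38.p6 (26180 genes, 45756 transcripts), and 0 peaks ended past a chromosome. Where several peaks met a promoter, the highest was described (by score for MOF, by fold enrichment otherwise), against the TSS nearest to the H3K4me3 summit. Members and gene lists were chosen with earlier results of these data known. All 39 members, their head-to-head partners, and listed genes with Rfx2 or without H3K4me3 are named; Rnaseh2a and Tpra1 were named after their values were seen. Overlap calls were checked against bedtools 2.31.1 on 20000 simulated peaks (0 of 26180 genes differed), and 2000 of 2000 planted motifs were found. Analyses used Python 3.11.15, pandas 2.3.3, SciPy 1.17.1 and pysam 0.24.0. Intervals of medians come from binomial order statistics over genes. Windows, overlap rules, score limits and motif spellings were varied.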

Additional observations from a re-analysis of the deposited data

How the results depend on the processing

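The use of 1 library per antibody and the small number of genes limit every share above, and the lists hold no read depth. No paired analysis was possible because no result came from a test and the 4 lists hold 1 library each. For the same reason no replicate could be left out. Requiring the centre of the peak to lie in the promoter moved the shares of members to 38.5% for MOF, 41.0% for H3K4me3, 69.2% for H3K27ac and 20.5% for all 3. The shares of all genes under this rule were 14.7%, 25.5%, 26.2% and 7.24%, lower as well than those reported. Of the 16 members with H3K4me3 under this rule, 8 had MOF, against 34.2% of all such genes. H3K27ac was at 15 of the 16, against 64.9%, and all 3 were at 8 of the 16, against 28.4%. Limiting the MOF list to its upper 50% by score gave 38.5% for MOF. The 6-letter core of the E2F motif gave 82.1%. The other alternatives, which were 3 symmetric windows, 1 TSS per gene, the upper 50% of the other lists by q-value and the peak nearest to the TSS, kept each value inside the interval of the value reported. With 1 TSS per gene, Lig1 lost H3K4me3 and H3K27ac. With the symmetric windows MOF was at 64.1% of members, against 42.5% (500 bp), 43.5% (1 kb) and 44.9% (2.5 kb) of genes with H3K4me3.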
